A study of Caenorhabditis elegans with 8 samples.

Results

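The C-type lectin (clec) family of *Caenorhabditis elegans* was measured in wild-type worms and in mir-71(n4115) mutants, which carry an allele of a microRNA gene. A gene was taken as a member where a probe set of the array was annotated to it alone and its symbol was clec followed by a number, with the probe set of the highest mean signal standing for the gene. This gave 247 genes on 248 probe sets, of 25478 genes in all. A further 6 probe sets named a clec gene together with another gene and were not counted, which left out clec-13, clec-15, clec-209, clec-248 and clec-249.

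Messenger RNA was measured on 1-colour Affymetrix arrays, with 4 arrays of wild type (N2) and 4 of the mutant strain mir-71(n4115). All worms were synchronised by bleaching, fed on *Escherichia coli* OP50, left untreated and collected on day 1 of adulthood. The labels do not give the extent of the n4115 lesion, and 0 probe sets were annotated to mir-71, so the mutated gene was not read in any sample. Whether the 4 samples of a group were separate cultures is not in the labels, and the p-values reflect the spread among these samples alone, which may be technical.

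C-type lectin domains are folds of which some bind sugars with the help of calcium and others have lost that ability. In this worm the family is large, most of its proteins carry a secretion signal, and many of its genes are expressed in the intestine. Sets of clec genes are known to be switched on by bacterial infection, with sets that differ between pathogens, and they are widely used as readouts of the worm's immune signalling. Other members act outside immunity, for example in the eggshell and in the nervous system.

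Few clec genes differed between the genotypes, and those that did went both ways. In the mir-71(n4115) mutants clec-6, clec-85 and clec-102 rose, by 3.58-fold, 2.15-fold and 1.74-fold. clec-222, clec-74, clec-223, clec-79 and clec-52 fell, and stood 3.19-fold, 2.65-fold, 2.01-fold, 1.81-fold and 1.71-fold higher in the wild type. The other 239 of 247 did not pass the test (limma, 2-sided, Benjamini-Hochberg over all 26192 annotated probe sets, threshold 0.05).

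The 8 called members were 3.24% of the family, and 1.84% of all genes were called in this comparison. By direction, 3 of 247 rose where 0.616% of all genes did, and 5 of 247 fell where 1.22% of all genes did. The members' median log2 difference, mutant minus wild type, was -0.02, and that of all genes was 0.02. Among protein-coding genes alone it was -0.02 for 233 members and -0.03 for all 18800, with 3.43% and 2.02% called. Of the members 118 were higher and 129 lower in the mutants, and their middle 50% lay between -0.22 and 0.17, against -0.22 and 0.26 for all genes. The mutant and wild-type arrays did not overlap for 26 members, of which 12 were higher in the mutants, where 6% of all genes were, and 14 lower, where 5.01% were. Together they made 10.5% of the family, where 11% of all genes were separated. At an unadjusted p under 0.05 there were 48 members, 19 higher and 29 lower, or 19.4% where 26.1% of all genes passed. By its median and its share of separated genes the family as a whole lay close to the rest of the array. Its share called, from 8 genes, was higher, and its share at that unadjusted p was lower.

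**Figure D1:**
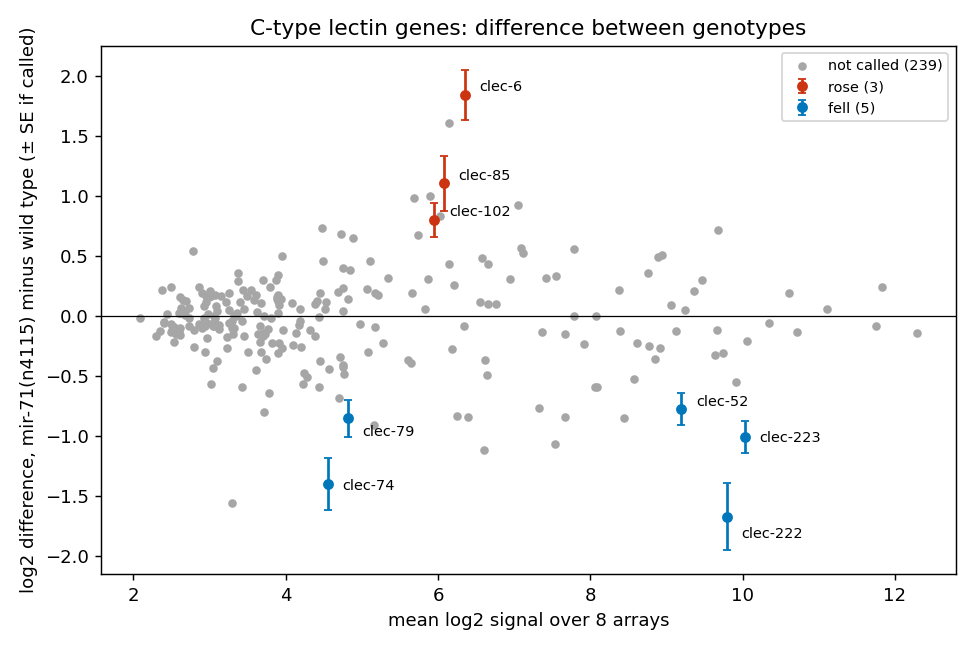
Log2 difference (mutant minus wild type) of the 247 clec genes against their mean log2 signal over 8 arrays; grey points were not called, red points rose and blue points fell, with bars of 1 SE. Most grey points lie near 0, and the called genes lie at log2 differences from -1.68 to 1.84.

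Many members gave dim signals. Both group means lay below the median of the array medians, 5.25, for 164 of 247 members, and for 12146 of all 25478 genes. Signals of different probe sets are not comparable as amounts of RNA, so this says only where on the array's scale the differences were read. Of the 78 members with a mean at or above that median 6 were called, or 7.69%, where 2.10% of the 12664 genes in that range were. Of the 169 members below it 2 were called, or 1.18%, where 1.58% of genes were. The groups did not overlap for 17 of the 78, or 21.8%, where 12.7% of the genes in that range were separated. Of the 169 it was 9, or 5.33%, where 9.29% of genes were. An unadjusted p under 0.05 in limma was reached by 28 of the 78, or 35.9%, where 34.5% of the genes in that range reached it. Of the 169, 20 reached it, or 11.8%, where 17.8% of genes did. None of the 14 members annotated as pseudogenes was called by limma, and 1 of them had an unadjusted p under 0.05. For 12 of the 14 both group means lay below the array median. Of all genes below it 1.58% were called and 17.8% had such an unadjusted p. The log2 differences of the 14 pseudogenes ran from -0.44 to 0.46.

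Wild-type replicate 4 stood apart from the other wild-type arrays. Across all annotated probe sets it correlated at 0.961 to 0.976 with wild-type replicates 1 to 3, and at 0.986 to 0.993 with the mutants. Across the 247 members alone these ranges were 0.959 to 0.974 and 0.973 to 0.983. They overlapped slightly, so the array stood apart less clearly within the family. Its value was nearer to the mutant mean than to the mean of wild-type replicates 1 to 3 for 158 members, or 64.0%, and for 72.2% of all genes. It was kept in the wild type, where its label puts it, and results are given with and without it.

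The largest rise was that of clec-6, a gene of chromosome III. Its log2 signals were 5.07, 5.97, 5.32 and 5.37 in wild-type replicates 1 to 4 and 7.56, 7.29, 6.93 and 7.31 in mutant replicates 1 to 4. The mutants lay above every wild-type array, and wild-type replicate 4 lay among the other wild types. The means were 5.43 ± 0.38 and 7.27 ± 0.26 (SD, n = 4), a log2 difference of 1.84 ± 0.21 (SE; limma, adjusted p = 0.00791). The gene remained past the threshold with any 1 array left out, with adjusted p from 5.07e-04 to 0.0379. clec-5, the next gene to clec-6 with no gene between them, differed by -0.06 ± 0.15 (adjusted p = 0.830).

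clec-85, on chromosome IV, is known as a target of the PMK-1 p38 immune pathway. It read 5.06, 5.43, 5.50 and 6.10 in the wild types and 6.27, 6.83, 6.55 and 6.87 in the mutants on the log2 scale. The groups did not overlap, but wild-type replicate 4 was the highest wild type and lay closer to the mutants than to the rest. The log2 difference was 1.11 ± 0.23 (SE, n = 4 per group; limma, adjusted p = 0.0465), and without replicate 4 it was 1.30 (adjusted p = 8.02e-04). Without any 1 of the other 7 arrays the call ended, with log2 differences from 0.95 to 1.23 and adjusted p from 0.0840 to 0.146. The next member along the chromosome, clec-84, differed by 0.72 ± 0.27 and was not called (adjusted p = 0.147). It read 8.71 to 9.54 in wild-type replicates 1 to 3, 10.03 in replicate 4 and 9.71 to 10.25 in the mutants.

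clec-102, on chromosome I, read 5.52, 5.29, 5.67 and 5.73 in the wild types and 6.34, 6.13, 6.53 and 6.41 in the mutants. All mutants lay above all wild types, with wild-type replicate 4 close to replicate 3. The log2 difference was 0.80 ± 0.14 (SE, n = 4 per group; limma, adjusted p = 0.0291), and without replicate 4 it was 0.86 (adjusted p = 0.00167). Without any 1 of the other 7 arrays adjusted p lay between 0.0611 and 0.0990.

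clec-222 and clec-223 are adjacent on chromosome V, with no gene between them, and both fell. clec-222 read 10.97, 10.96, 10.90 and 9.68 in wild-type replicates 1 to 4 and 9.08, 8.74, 9.04 and 8.94 in the mutants. Wild-type replicate 4 stood between the groups and nearer to the mutants. The gene differed by -1.68 ± 0.28 (SE, n = 4 per group; limma, adjusted p = 0.0257), and -1.99 without replicate 4 (adjusted p = 5.42e-05). clec-223 read 10.62, 10.66, 10.59 and 10.28 in the wild types and 9.68, 9.32, 9.58 and 9.53 in the mutants. Here replicate 4 stayed on the side of the other wild types. Its log2 difference was -1.01 ± 0.13 (adjusted p = 0.0119). The call of clec-223 ended without wild-type replicate 1 (adjusted p = 0.0529) or 2 (0.0537). That of clec-222 ended without any 1 array other than wild-type replicate 4, with adjusted p from 0.0699 to 0.0935. Whether probes of the 2 genes read each other's RNA was not tested.

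clec-74 and clec-79, both on chromosome IV, fell as well. clec-74 read 5.32, 5.73, 5.22 and 4.78 in the wild types and 3.60, 3.98, 3.63 and 4.21 in the mutants, with wild-type replicate 4 the lowest wild type. The difference was -1.40 ± 0.22 (SE, n = 4 per group; limma, adjusted p = 0.0204) and -1.56 without replicate 4. clec-79 read 5.51, 4.99, 4.99 and 5.47 in the wild types and 4.37, 4.44, 4.49 and 4.25 in the mutants, with replicate 4 among the wild types. The gene differed by -0.85 ± 0.16 (adjusted p = 0.0316). Both genes had mutant means below the array median. The call of clec-74 ended when 1 of the arrays other than wild-type replicate 4 and mutant replicate 4 was left out, with adjusted p from 0.0517 to 0.0761. The call of clec-79 ended without wild-type replicate 1 or 2 or any 1 mutant, with adjusted p from 0.0687 to 0.104.

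clec-52, also on chromosome IV, read 9.68, 9.72, 9.33 and 9.61 in the wild types and 8.89, 8.93, 8.57 and 8.84 in the mutants. Wild-type replicate 4 lay within the range of the other wild types, and the groups were apart. The log2 difference was -0.78 ± 0.13 (SE, n = 4 per group; limma, adjusted p = 0.0287) and -0.77 without replicate 4. The call ended without wild-type replicate 1 or 2 or any 1 mutant (adjusted p from 0.0799 to 0.103). Its neighbour clec-51, 1 gene away, differed by -0.52 ± 0.27 and was not called (adjusted p = 0.243).

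**Figure D2:**
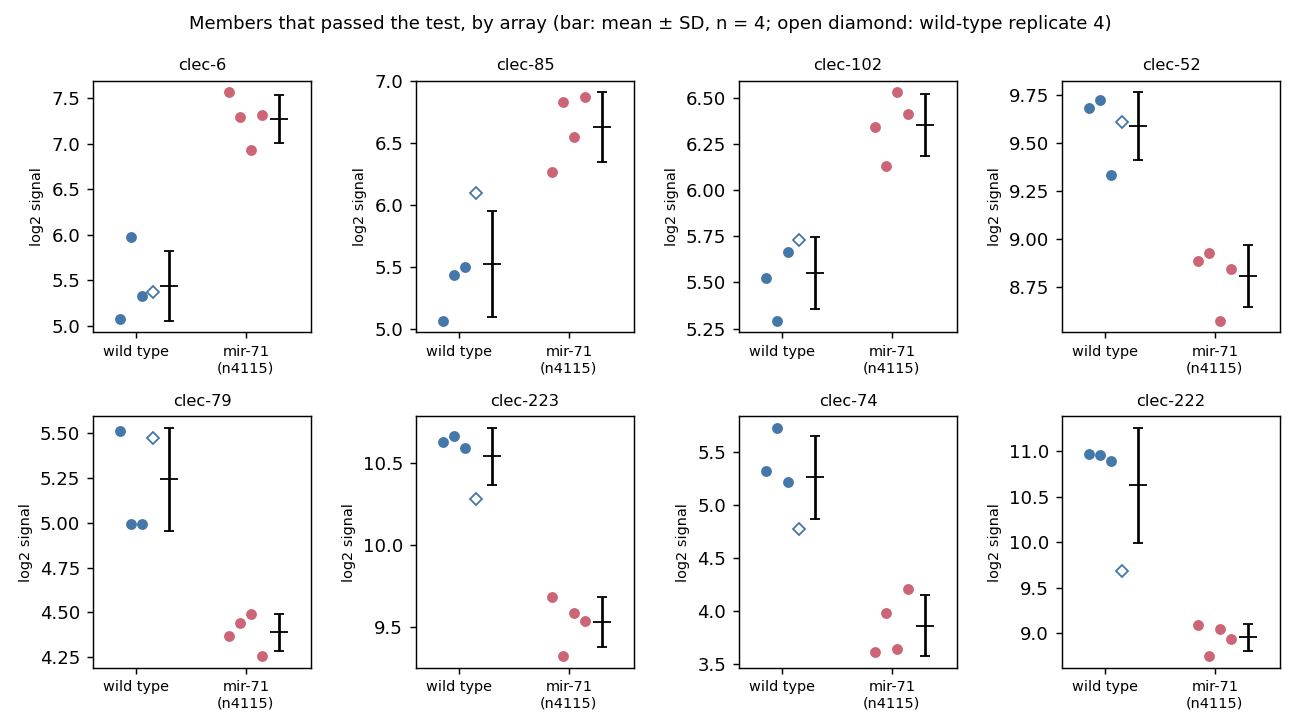
Log2 signal of the 8 called clec genes in each array, wild type in blue and mir-71(n4115) in red, with the mean ± SD of 4 arrays in black and wild-type replicate 4 as an open diamond. The groups do not overlap in any panel; the diamond lies nearer to the mutants for clec-85 and clec-222 and with the other wild types for clec-6 and clec-52.

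Other members did not pass. For clec-78, clec-57, clec-225, clec-264, clec-180 and clec-90, among the uncalled members of lowest p, wild-type replicate 4 read close to the mutants. clec-78, a chromosome IV gene, read 4.71, 5.05 and 4.83 in wild-type replicates 1 to 3, 6.78 in replicate 4 and 6.84 to 7.26 in the mutants. Its log2 difference was 1.61 ± 0.41 (SE, n = 4 per group; limma, adjusted p = 0.0799), and 2.09 without replicate 4 (adjusted p = 6.66e-05). clec-57 on chromosome V read 8.21 to 8.48 in wild-type replicates 1 to 3, 7.20 in replicate 4 and 6.86 to 7.09 in the mutants. Its log2 difference was -1.07 ± 0.26 (adjusted p = 0.0725). clec-225, also on V, read 7.30 to 7.70, then 6.25, then 5.81 to 6.31, so that replicate 4 lay inside the mutant range (log2 difference -1.12 ± 0.29, adjusted p = 0.0852). clec-264 read 7.81 to 8.13, then 7.10, with a mutant mean of 6.95 ± 0.06 (SD; log2 difference -0.77 ± 0.20 SE, adjusted p = 0.0853). clec-180 and clec-90 read higher in replicate 4, at 7.49 and 9.22, inside the mutant ranges of 7.26 to 7.96 and 9.14 to 9.28.

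For clec-219, clec-31, clec-24, clec-164 and clec-263, also uncalled, wild-type replicate 4 lay nearer to the other wild types than to the mutants. clec-219 read 5.23, 3.54, 3.81 and 3.72 in the wild types and 2.37 to 2.59 in the mutants, dim signals whose spread came from wild-type replicate 1. Its log2 difference was -1.56 ± 0.33 (SE, n = 4 per group; limma, adjusted p = 0.0509). clec-31, clec-24 and clec-164 were higher in the mutants by 0.67, 0.74 and 0.54 on the log2 scale, with adjusted p from 0.0751 to 0.0924. In these 3 genes replicate 4 lay at 5.07, 3.94 and 2.63, where the other wild types ran from 5.24 to 5.67, 3.97 to 4.47 and 2.34 to 2.61. clec-263 was lower by 0.57 (3.30 ± 0.23 and 2.73 ± 0.16, SD), a dim gene with adjusted p = 0.0840. The 12 members of lowest p in each direction were completed by clec-198 (1.00 ± 0.25), clec-7 (0.49 ± 0.15), clec-122 (0.50 ± 0.17), clec-139 (-0.83 ± 0.20) and clec-70 (-0.59 ± 0.17), all log2 differences ± SE. In each of these genes replicate 4 lay between the means of the other wild types and of the mutants, nearer to the mutants.

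**Figure D3:**
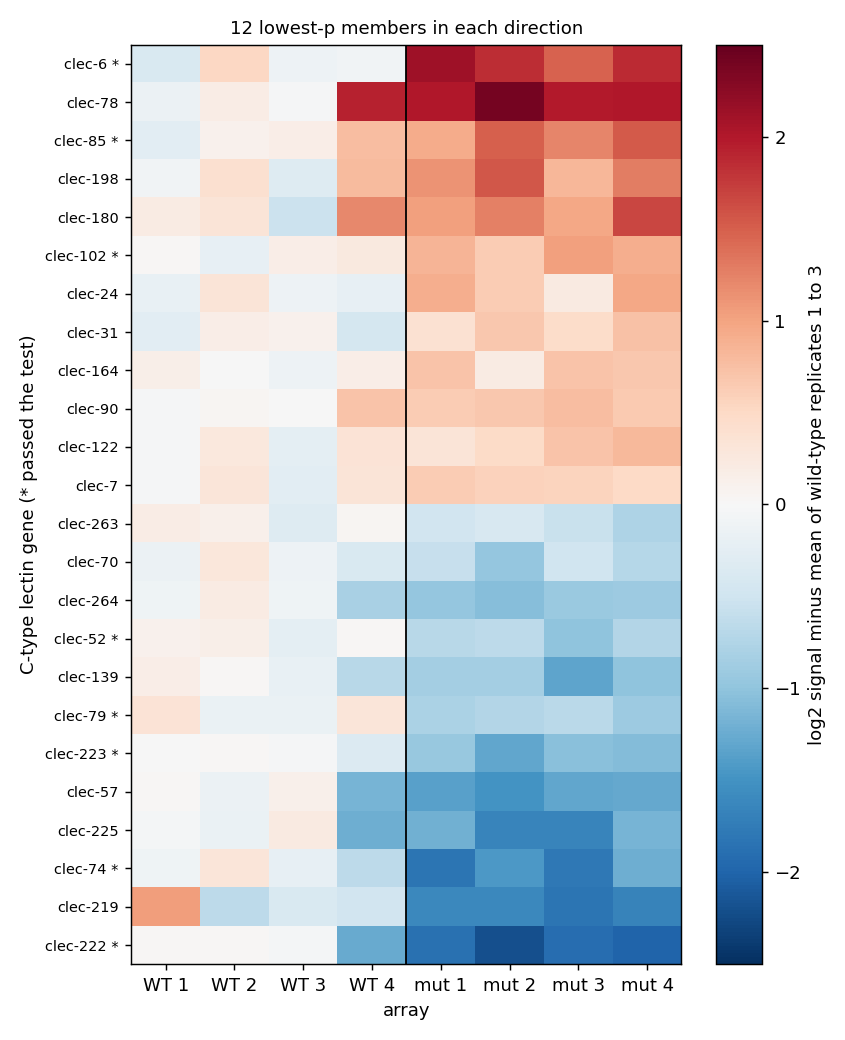
Log2 signal of the 12 clec genes of lowest p in each direction (rows) in the 8 arrays (columns), each as the difference from the mean of wild-type replicates 1 to 3; stars mark the 8 called genes. The column of wild-type replicate 4 takes the mutants' colour in rows such as clec-78, clec-180, clec-57 and clec-225 and stays pale in rows such as clec-6 and clec-52.

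Without wild-type replicate 4, 27 members rose, where 19.1% of all genes did, and 36 fell, where 17.8% did. Together they were 25.5% of the family, and 36.9% of all genes were called in the same fit. All 8 members called with it were called without it, in the same direction. The omitted array lay closer to the mutant mean than to the other wild types for 49 of these 63 members (77.8%) and for 87.9% of the genes called in that fit. Because that array is left out of a group it is labelled for, these counts do not measure genotype alone.

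Of the 22 members known to respond to infection 1 rose, 0 fell and 21 were not called, with 7 at an unadjusted p under 0.05 in limma. These were 4.55% called and 31.8% under that p, where 1.84% and 26.1% of all genes were. The list was drawn from general knowledge, and its members respond to different pathogens. Its median log2 difference was -0.02, as was that of the whole family, with 11 of 22 higher in the mutants. The member that rose was clec-85. clec-67, likewise known as a p38 target, read 5.68 to 6.45 in wild-type replicates 1 to 3, 7.22 in replicate 4 and 6.71 to 7.08 in the mutants. The highest value was therefore a wild type, and the log2 difference was 0.43 ± 0.28 (SE, n = 4 per group; limma, adjusted p = 0.333). clec-60, known for its induction by Gram-positive bacteria, read 3.21 to 4.33 in the wild types and 3.33 to 3.93 in the mutants, and the groups overlapped (-0.17 ± 0.23, adjusted p = 0.664). clec-39 and clec-49, whose loss is known to make worms more sensitive to *Serratia marcescens*, differed by -0.04 ± 0.13 and -0.23 ± 0.36. clec-41 and clec-42 differed by -0.13 ± 0.15 and -0.14 ± 0.16.

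The list's widest differences beside clec-85 were those of clec-43, clec-86 and clec-190, none of which passed. clec-43 read 4.47, 5.34, 4.82 and 6.15 in the wild types and 5.99, 6.49, 5.59 and 6.64 in the mutants (log2 difference 0.98 ± 0.36, SE; limma, adjusted p = 0.142). clec-86 read 6.42, 5.71, 5.56 and 4.77 in the wild types and 4.29, 4.63, 4.90 and 5.00 in the mutants (-0.91 ± 0.32, adjusted p = 0.130). clec-190 read 9.35, 8.97, 8.99 and 8.16, then 8.06, 7.68, 8.39 and 7.94 (-0.85 ± 0.25, adjusted p = 0.104). In all 3 genes wild-type replicate 4 lay inside the mutant range. Without it 6 of the 22 rose and 4 fell, or 45.5%, in a fit that called 36.9% of all genes. For clec-4 replicate 4 stood farthest from the other wild types in this list: it read 8.09, where they read 5.86 to 7.20 and the mutants 7.09 to 7.58. For clec-49 and clec-50 the mutants themselves were spread widely, from 7.58 to 9.19 and from 8.64 to 10.16.

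**Figure D4:**
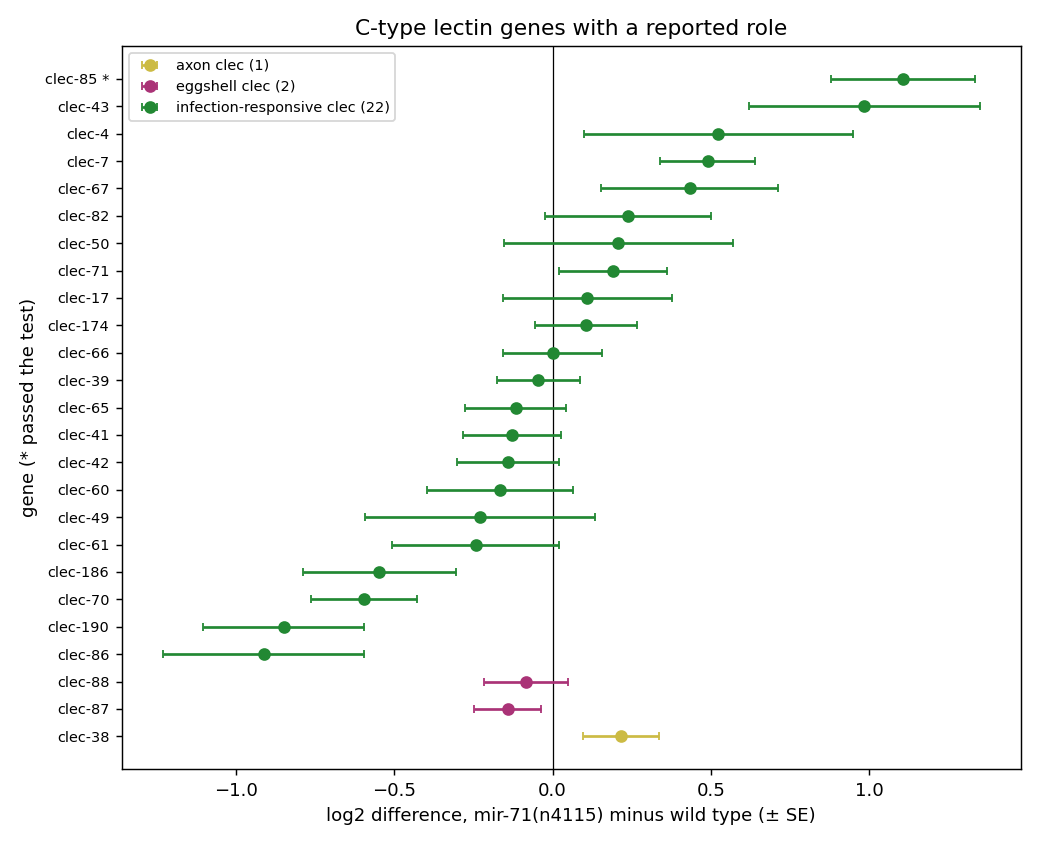
Log2 difference (mutant minus wild type, ± SE, 4 arrays per group) of the 22 infection-responsive, 2 eggshell and 1 axon clec genes. The star marks clec-85, the called gene at 1.11; the bars of most others reach or cross 0.

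The eggshell members differed little. clec-87 and clec-88 encode the chondroitin proteoglycans CPG-5 and CPG-6, and are expressed in the germ line. clec-87 read 12.46, 12.41, 12.35 and 12.21 in the wild types and 12.27, 12.19, 12.19 and 12.21 in the mutants (log2 difference -0.14 ± 0.10, SE; limma, adjusted p = 0.393). clec-88 differed by -0.08 ± 0.13 (adjusted p = 0.703), with overlapping groups. Both are among the 6 members with the highest probe set signal. The other 4, clec-91, clec-266, clec-63 and clec-150, differed by -0.13 to 0.24 with adjusted p from 0.466 to 0.810. clec-38, known for its part in axon guidance and synapse formation, gave dim signals of 3.21 to 3.48 in the wild types and 3.42 to 3.73 in the mutants (0.22 ± 0.12, adjusted p = 0.267).

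Upstream of many infection-responsive clec genes stand the p38 cascade, which runs from the adaptor TIR-1 through SEK-1 to PMK-1 and the transcription factor ATF-7, and the intestinal GATA factor ELT-2. Of 20 listed genes of this pathway and of intestinal regulation 18 were measured, 0 rose and 0 fell, and 6 had an unadjusted p under 0.05 in limma, or 33.3% where 26.1% of all genes did. The median log2 difference was 0.32, where that of all genes was 0.02. Of the 18, 15 had higher means in the mutants, as had 13209 of all 25478 genes. The listed genes are long, with a median genomic span of 5081.5 bases against 1537 for all genes. The part of gene length in their differences was not tested. tir-1 differed by 0.62 ± 0.20 (SE, n = 4 per group; limma, adjusted p = 0.114) and atf-7, which had the lowest p, by 0.38 ± 0.12 (adjusted p = 0.108). The lower gene of lowest p was gpa-12, a G protein alpha subunit gene, at -0.32 ± 0.13 (adjusted p = 0.164). Against wild-type replicates 1 to 3 the list's median stood at 0.44 in replicate 4 and at 0.43 in the mutants. Without it 10 rose and 0 fell, or 55.6%, in a fit in which 19.1% of all genes rose and 36.9% were called. For the infection-responsive clec genes the corresponding medians were 0.22 and 0.01.

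Whole worms hold several tissues, and a smaller share of a tissue cannot be told apart from less RNA per cell. For the counts below, 0.616% of all genes rose, 1.22% fell and 26.1% had an unadjusted p under 0.05 in limma. Of 10 intestine markers 0 were called by limma (4 at an unadjusted p under 0.05, 2 higher and 2 lower). Their mean log2 signal ran from 9.34 to 9.44 in the wild types and from 9.28 to 9.33 in the mutants. That mean averages differences that went both ways, from -1.05 for ges-1 to 0.62 for elt-2, with 3 higher and 7 lower. The groups did not overlap for 4 of the 10, 1 higher and 3 lower, or 40% where 11% of all genes were separated. Of 15 measured sperm markers 8 fell, with means from 5.51 to 5.69 in the wild types and 4.58 to 4.94 in the mutants, and with replicate 4 among the wild types. Of 10 epidermis markers 2 rose, with means of 7.60 to 8.41 and 8.40 to 8.52. For these markers replicate 4, at 8.41, read like the mutants. Of 11 oocyte, 7 neuron, 6 body wall muscle and 5 pharynx markers 0 were called, with 0, 2, 1 and 4 at an unadjusted p under 0.05. The part of any of these tissues in the clec differences was not tested.

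Members lay on all 6 chromosomes, with 33 on I, 51 on II, 15 on III, 57 on IV, 88 on V and 3 on X. Of the called members clec-102 lay on I, clec-6 on III, clec-85, clec-74, clec-79 and clec-52 on IV, and clec-222 and clec-223 on V. On chromosome IV 4 of 57 members were called, 1 of which rose; they were 7.02%, where 2.48% of all genes on IV were called. On II, 0 of 51 were called by limma, where 1.64% of all genes on II were called. At an unadjusted p under 0.05 there were 6, or 11.8%, where 26.6% of all genes on II passed. The members' median log2 differences by chromosome ran from -0.24 on X, from 3 genes, to 0.025 on II. Those of all genes ran from -0.024 on V to 0.13 on X.

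The family lies partly in rows of neighbouring genes. A run was taken as at least 3 members with no more than 3 other protein-coding genes or pseudogenes between neighbours in the RefSeq annotation of WBcel235, which was used for gene order only. There were 21 runs, holding 111 of the 247 members. The longest held 14 members on chromosome IV, from clec-67 to clec-78. In it clec-74 and clec-79 fell, 0 rose, and log2 differences ran from -1.40 to 1.61, with 8 members higher and 6 lower. The immediate neighbours of clec-74, clec-73 and clec-75, differed by -0.26 ± 0.26 and -0.14 ± 0.13 and were not called. Next to clec-79, clec-77 differed by 0.24 ± 0.14, and clec-78 lay 3 genes further on.

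The other runs held 1 called member among them, clec-85. Its run on chromosome IV, from clec-80 to clec-85, held 5 members with log2 differences from -0.37 to 1.11. A run of 13 members on chromosome V, from clec-40 to clec-33, had 10 higher and 3 lower, from -0.48 to 0.74, with 0 called by limma. In the run of 5 from clec-57 to clec-55 all 5 were lower, from -1.07 to -0.08, and 0 were called. In the run of 4 from clec-136 to clec-139, 3 were lower and the median was -0.54, and wild-type replicate 4 lay 0.40 below the other wild types there. Runs were described by their counts and ranges and were not tested.

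**Figure D5:**
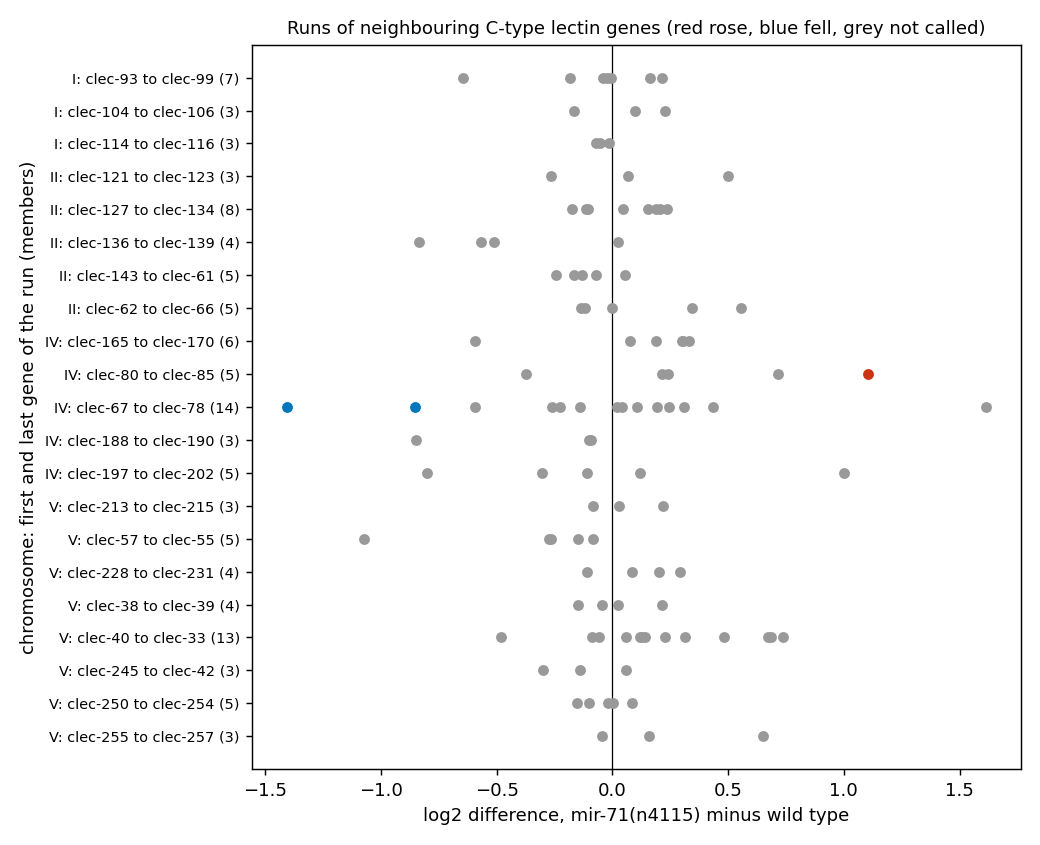
Log2 difference (mutant minus wild type) of the 111 clec genes in 21 runs of neighbouring members; each row is a run, named by its chromosome and its first and last gene, and each point a gene, red if it rose, blue if it fell and grey if not called. Called genes appear in 2 rows on chromosome IV, and most rows spread to both sides of 0.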

How the data were processed

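Partek 6.6 and RMA, which corrects background, normalises arrays and summarises probes, are named in the submitters' processing notes. Their settings and the genome build are not given in the sources read. The deposited values are log2 signals, as read from their range and from RMA, for 29317 probe sets and 8 arrays (0 other per-sample columns). The 26192 probe sets with a gene in the platform annotation, which can be old, were tested; 25546 had 1 gene. All 247 members kept their symbol in the RefSeq table of WBcel235.

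The values were not normalised again, and a shift common to most genes is invisible in them. Groups came from the titles. The groups were compared by limma 3.58.1 under R 4.3.3 (eBayes after lmFit, no covariate), fitted on all annotated probe sets and tested on simulated data. Detection above background was not judged, as no scanner file was used. The precision is limited by 4 arrays per group. The members, lists and alternatives were chosen with earlier results of these data known. Named were all called members, others of lowest p up to 12 per direction, the 6 of highest signal, and the lists. Other genes are named as their neighbours, members of a run, or after their values were seen.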

Additional observations from a re-analysis of the deposited data

Results flagged for a closer look

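In 10 of 100 groups of 4 arrays examined for the 50 named members, 1 array lay far from the other 3 by Dixon's criterion, where chance gives about 5%. The share over all genes was not computed, so the count does not show a trait of these members. Wild-type replicate 4 was that array for clec-222 (9.68, others 10.90 to 10.97), clec-78 (6.78, others 4.71 to 5.05) and clec-90 (9.22, others 8.47 to 8.55). Mutant replicate 3 was lowest for clec-91 (11.65, others 12.03 to 12.06), clec-266 (10.81, others 11.21 to 11.30) and clec-65 (9.23, others 9.71 to 9.73). Mutant replicate 2 was highest for clec-78 (7.26, others 6.84 to 6.86) and lowest for clec-164 (2.67, others 3.15 to 3.19). Wild-type replicate 2 was highest for clec-24 (4.47, others 3.94 to 4.03) and wild-type replicate 1 for clec-219 (5.23, others 3.54 to 3.81).

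A probe set outside the family's count also differed between the groups. The probe set annotated to both clec-209 and F56A4.2 read 9.60, 9.68, 9.70 and 10.27 in the wild types and 10.50, 10.87, 10.73 and 10.84 in the mutants. It differed by 0.92 ± 0.17 on the log2 scale (SE, limma, 4 arrays a group, adjusted p = 0.0338). A second row of the table with the same annotation repeated these values. Which of the 2 genes it reads was not tested.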

How the results depend on the processing

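The members called (3 higher, 5 lower) numbered 1 to 27 higher and 0 to 36 lower with 1 array left out, the most without wild-type replicate 4. Without any 1 of the other 7 arrays, 1 to 4 of the 8 calls held, and clec-6 passed in each of these fits. Array weights, which gave wild-type replicate 4 a weight of 0.170, called 34 higher and 40 lower. The share of all genes called was computed only for the main fit (1.84%) and the fit without wild-type replicate 4 (36.9%). The counts of the other fits therefore do not show a trait of the family. eBayes with trend and robust called 1 higher (clec-85 and clec-102 no longer passed) and 6 lower. An adjusted p of 0.01 left 1 higher and 0 lower. Quantile normalisation, leaving out the dimmest 40% of probe sets, a gene's median probe set value and a fold of at least 1.5 each kept 3 and 5. The members' median moved from -0.02 to 0.10 with the trend with gene length (genomic span) removed, over the 233 protein-coding members. Without the dimmest 40% of probe sets it was 0.040. That median was taken over the members that remained, whose log2 differences were those of the main fit. With the length trend removed 4 were higher and 5 lower: clec-52 no longer passed (adjusted p = 0.0597), and clec-31 and clec-219 did. There clec-87 (0.068), clec-88 (0.088), clec-266 (-0.12) and clec-39 (0.017) changed sign, none called. With array weights clec-60 (0.030) and clec-66 (-0.017) did. With 1 array left out the sign changed for uncalled members near 0: clec-17 (-0.063 to 0.29), clec-39 (-0.10 to 0.0063), clec-49 (-0.46 to 0.077), clec-50 (-0.022 to 0.48), clec-60 (-0.36 to 0.017), clec-63 (-0.25 to 0.010), clec-65 (-0.18 to 0.0068), clec-66 (-0.073 to 0.12) and clec-174 (-0.022 to 0.19). The cause of the sign changes and of the move with the length trend was not tested.

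With the replicate number as a block 4 were higher and 4 lower: clec-79 no longer passed (adjusted p = 0.0636) and clec-198 did (0.0469). Same-numbered arrays' deviations from their group means correlated at 0.19, -0.11, 0.37 and 0.27. For arrays of different numbers the values ran from -0.37 to 0.43, a range that holds the same-numbered values. Whether the numbers pair the samples cannot be told from these values.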
